A study of Mus musculus with 11 samples.

Results

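The genes described here encode secreted and membrane-bound matrix proteases, their inhibitors and the enzymes that crosslink collagen and elastin, and their transcripts were measured in the prostates of mice with an ERG transgene, mutant Trp53 or both. The members were taken by symbol alone: every listed locus named Mmp, Adamts, Timp1 to Timp4, Lox or Loxl1 to Loxl4, without regard to its values. This rule found 50 of the 29291 listed loci, namely 22 matrix metalloproteinases (MMPs), 19 ADAMTS proteases, 4 tissue inhibitors of metalloproteinases (TIMPs) and 5 lysyl oxidases. Bulk RNA sequencing had been done on whole prostate tissue from 11 C57BL/6 mice aged 15 months. Of these, 3 were wild-type (WT) littermates. Another 3 carried Pb-ERG, a TMPRSS2-ERG transgene (Pb-T2-ERG in the study's own naming) driven by the probasin (Pb) promoter. A further 2 were Trp53pcR172H/-, in which Pb-Cre4 acts on 1 Trp53 allele that expresses R172H after removal of a floxed stop and on 1 floxed allele that is deleted. The last 3 carried both and are written Pb-ERG;Trp53pcR172H/- in the labels and double genotype here. The study calls the tissue of these 3 prostate tumours, so the double genotype and tumour tissue cannot be told apart in any comparison. It left out the data of 1 Trp53pcR172H/- mouse for poor quality. The transgene and the Cre act in prostate epithelium, so the stop and the floxed allele should remain in stroma, vessels and leukocytes. Recombination was not measured here. The stated purpose of the series was to find genes that differ in the double genotype, and the question asked here is which of these enzymes and inhibitors did.

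MMPs are zinc endopeptidases that are made as inactive proenzymes and that between them cleave collagens, basement membrane, proteoglycans and many surface proteins. ADAMTS enzymes are secreted relatives whose members cut the large proteoglycans, trim procollagen or act on fibrillin and thrombospondin networks. TIMPs bind the active site of MMPs and, in the case of Timp3, of several ADAMTS enzymes, and lysyl oxidases oxidise lysines so that collagen and elastin fibres become crosslinked. In the prostate, Mmp7 is known as an epithelial product, whereas Mmp2, Mmp14, Lox and most ADAMTS enzymes are mainly products of fibroblasts and other stromal cells.

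The values were FPKM, fragments scaled to exon length and to library size, which can be compared between genes. Between 14280978 and 51965100 fragments stood behind a library. The share of them inside the listed loci was 60.3% in Pb-ERG replicate 2 and 74.8% in double genotype replicate 2, against 86.4% to 95.5% in the other 9. Small non-coding RNA was counted at the Rn7sk, Rpph1 and Rmrp loci alone. It took at least 4% of the fragments in all 3 double libraries, WT replicate 2 and Trp53pcR172H/- replicate 2, and less in the other 6. Differences are given on the log2(FPKM + 1) scale with their standard error (SE) from 1 limma model over the 4 groups, with Benjamini-Hochberg adjusted p-values computed across 15583 loci that reached 1 FPKM in at least 2 libraries. A member is said to have risen or fallen where its adjusted p was under 0.05, and this scale understates the change of a gene whose FPKM lies near or under 1.

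Of the 50 members, 33 passed that filter. In the double genotype against WT, 23 of the 33 rose and 2, Adamts8 and Mmp17, fell, while 19.1% of all loci tested rose and 6.26% fell. At an adjusted p under 0.001, the study's own threshold, 12 members rose, against 3.48% of loci. Of the 23 that rose, 8 (Mmp3, Mmp11, Adamts3, Adamts4, Adamts6, Adamts7, Adamts12 and Loxl2) had passed the filter only through the double libraries, so that these had to differ and their tests add no support, and 15 passed it without those libraries. In a fit without any filter, 24 of the 50 members were higher and 1 was lower, against 9.60% and 2.77% of all listed loci. The 3 double libraries all lay above the 3 WT libraries for 32 of 50 members (23.7% of all listed loci did) and all below them for 4 (8.40% of all listed loci did). The map of levels by library shows the rise in 3 of 3 double libraries and smaller differences of the same direction in Pb-ERG replicates 2 and 3. In bulk tissue, fewer cells of a type cannot be told apart from less RNA per cell, and this holds for every level given here.

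**Figure D1:**
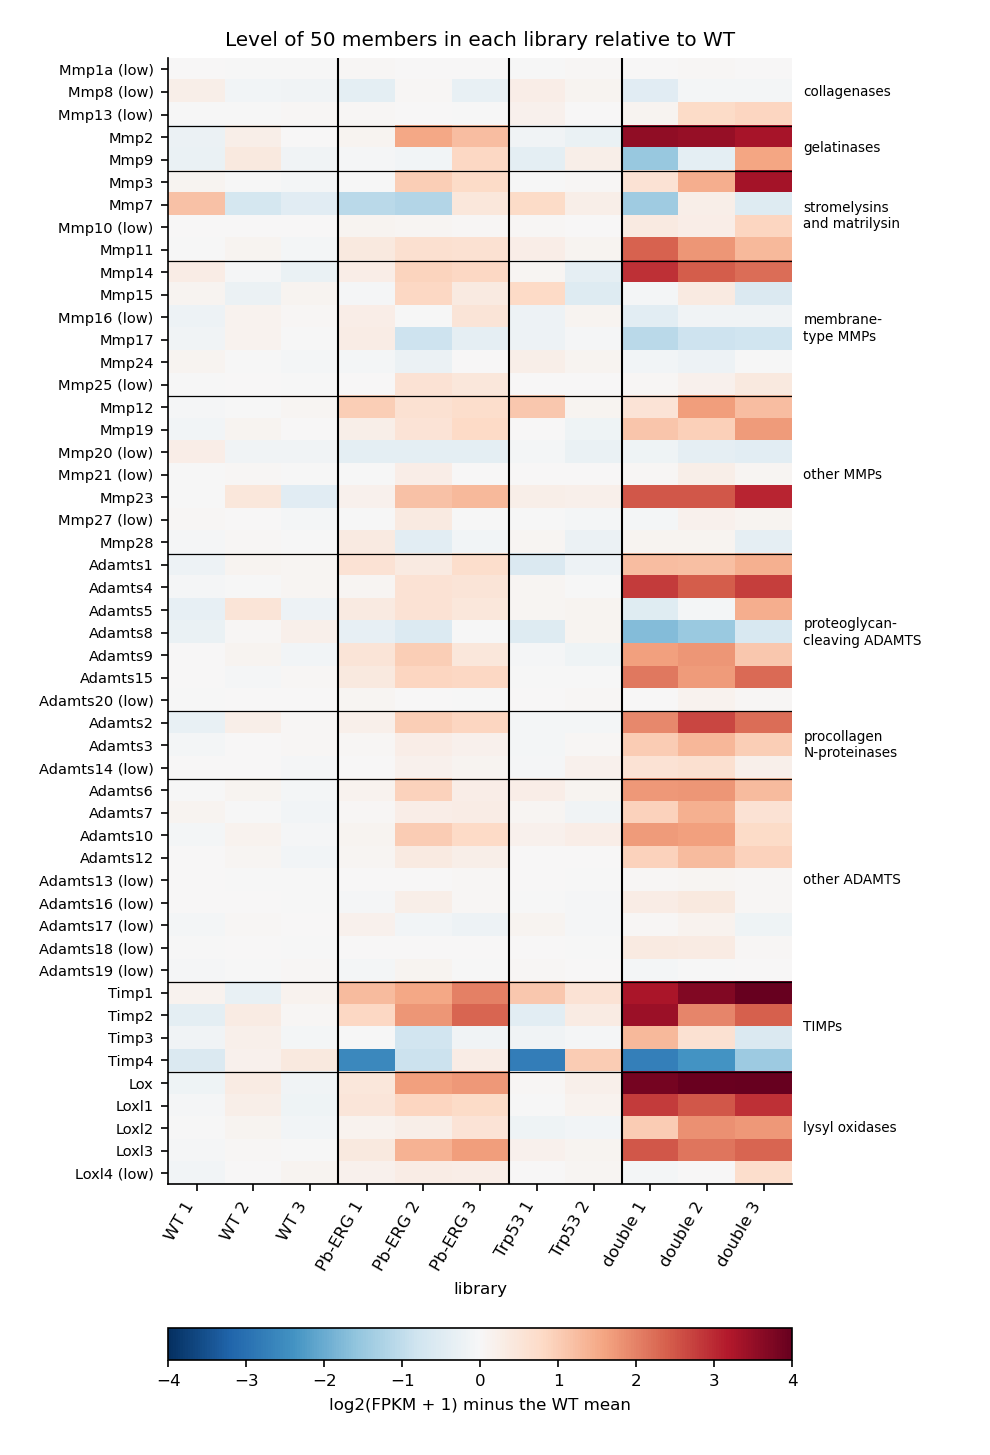
Difference of log2(FPKM + 1) from the WT mean (colour, limited to 4 in either direction) for the 50 members (rows, by class; "low" marks the 17 under the filter) in each of the 11 libraries (columns; Trp53 stands for Trp53pcR172H/-). Red is dominant in the 3 double libraries for Mmp2, Mmp14, Adamts4, Timp1, Lox and Loxl1, and Timp1 and Lox in double genotype replicate 3 lie beyond the colour limit.

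Among the gelatinases, which cleave denatured collagen and basement membrane collagen IV, Mmp2 rose and Mmp9 did not pass the test. Mmp2 (chr8:92827328-92853417, GRCm38) stood at 5.08, 7.52 and 6.21 FPKM in WT, 6.75, 19.8 and 15.8 in Pb-ERG, 5.59 and 5.05 in the Trp53pcR172H/- mice and 83.1, 80.4 and 69.03 in the double genotype. The lowest double library was above the highest of the other 8, and the double mean of 77.5 was 12.4 times the WT mean. The difference from WT was 3.44 ± 0.32 log2 units (SE, adjusted p = 8.05e-05). Mmp9 stood at 1.5, 2.88 and 1.72 FPKM in WT, 1.89, 1.76 and 4.27 in Pb-ERG, 1.27 and 2.49 in the Trp53pcR172H/- mice and 0.0335, 1.26 and 7.98 in the double genotype. The 3 double libraries enclosed the range of every other group, with the lowest value of the series in replicate 1, where only 2 fragments were counted, and the highest in replicate 3, and the difference from WT was -0.11 log2 units (95% interval -1.48 to 1.26, adjusted p = 0.915). The ratio of Mmp2 to Mmp9 was 2.61 to 3.62 in the WT libraries and 2480, 63.6 and 8.66 in the double libraries.

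Mmp14 encodes the main membrane-type MMP, which activates pro-Mmp2 at the cell surface together with Timp2. Its locus (chr14:54431604-54441258) gave 8.15, 6.34 and 5.29 FPKM in WT, 8.09, 12.8 and 12.3 in Pb-ERG, 6.97 and 4.91 in the Trp53pcR172H/- mice and 56.1, 39.6 and 34.1 in the double genotype. All 3 double libraries were above all others, and the difference from WT was 2.53 ± 0.26 log2 units (SE, adjusted p = 0.000125). None of the 3 other tested membrane-type genes rose. Mmp15, the most abundant of this class in WT at 15.8 FPKM, differed from WT by -0.1 log2 units (95% interval -0.9 to 0.7, adjusted p = 0.866), so that the ratio of Mmp14 to Mmp15 went from 0.310 to 0.477 in WT to 1.92 to 3.79 in the double genotype. Mmp24 differed by -0.1 log2 units (95% interval -0.45 to 0.24, adjusted p = 0.662). Mmp17, a glycosylphosphatidylinositol-anchored member, stood at 1.38, 1.95 and 1.64 FPKM in WT, 2.25, 0.50 and 1.08 in Pb-ERG, 1.3 and 1.55 in the Trp53pcR172H/- mice and 0.266, 0.491 and 0.522 in the double genotype. It fell in the double genotype by 0.90 on the log2 scale (SE 0.26, adjusted p = 0.0297), with Pb-ERG replicate 2 among the double libraries. That call was lost in 9 of 21 alternative fits, among them those without any 1 WT library and those without double replicate 1 or 2. Mmp16 and Mmp25 were under the filter, with at most 0.987 and 0.570 FPKM.

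Mmp11 (stromelysin 3), a furin-activated MMP known from tumour stroma, stood at 0.249, 0.349 and 0.194 FPKM in WT, 0.659, 0.976 and 0.927 in Pb-ERG, 0.514 and 0.367 in the Trp53pcR172H/- mice and 5.42, 3.33 and 2.08 in the double genotype. Its double libraries did not overlap any other group, and it rose by 1.8 ± 0.25 log2 units (SE, adjusted p = 0.000647). Its last exons overlap those of Chchd10 on the opposite strand, and the library kit does not mark strand. Mmp19 stood at 1.11, 1.48 and 1.3 FPKM in WT, 1.71, 2.34 and 3.0 in Pb-ERG, 1.33 and 1.05 in the Trp53pcR172H/- mice and 3.93, 3.44 and 6.41 in the double genotype. Every double library was above every other library, and Mmp19 rose by 1.25 ± 0.23 log2 units (SE, adjusted p = 0.00293). Mmp23, a type II membrane protein that lacks the usual cysteine switch, stood at 3.31, 4.88 and 2.16 FPKM in WT, 3.82, 8.8 and 9.58 in Pb-ERG, 4.13 and 4.0 in the Trp53pcR172H/- mice and 22.96, 23.3 and 34.5 in the double genotype. Here too the groups were separate, with a rise of 2.67 ± 0.33 log2 units (SE, adjusted p = 0.000292). Mmp28 (epilysin) differed from WT by -0.05 log2 units (95% interval -0.57 to 0.48, adjusted p = 0.906), and Mmp21 was under the filter with at most 0.218 FPKM.

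A cluster of 9 MMP genes lies within 427 kb on chromosome 9 (chr9:7272514-7699585), in the order Mmp13, Mmp12, Mmp3, Mmp1a, Mmp10, Mmp8, Mmp27, Mmp20 and Mmp7. It holds the genes of classical inducible MMPs, whose proximal promoters are known for an AP-1 element (the binding site of Fos and Jun dimers) near a TATA box. The letters TGANTCA, searched on both strands of the 250 bases upstream of the RefSeq starts (GRCm38.p6), were found for 7 of these 9 genes and for none of the other 23 members that have such a window. Over all 32851 windows of the table, 6.75% held them. The 120 bases upstream of the start are shown for the 7 genes because letters matching TGANTCA, in capitals, start between position -95 and position -35 in all of them. The letter at N is C in Mmp13, A in Mmp20 and G in the others, and the levels of the 7 genes differ widely. All lie on the plus strand and are printed 5′ to 3′.
Mmp13 (chr9:7272394-7272513): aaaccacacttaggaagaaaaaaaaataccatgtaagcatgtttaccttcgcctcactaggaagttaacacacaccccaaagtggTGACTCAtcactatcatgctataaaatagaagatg
Mmp12 (chr9:7347254-7347373): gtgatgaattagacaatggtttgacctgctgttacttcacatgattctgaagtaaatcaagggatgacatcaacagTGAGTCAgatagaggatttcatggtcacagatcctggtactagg
Mmp3 (chr9:7445702-7445821): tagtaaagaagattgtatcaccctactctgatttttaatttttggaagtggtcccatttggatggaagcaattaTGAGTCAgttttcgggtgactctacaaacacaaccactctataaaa
Mmp1a (chr9:7464021-7464140): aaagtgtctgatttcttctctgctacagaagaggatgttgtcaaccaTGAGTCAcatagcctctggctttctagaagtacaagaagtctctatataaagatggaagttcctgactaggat
Mmp10 (chr9:7502222-7502341): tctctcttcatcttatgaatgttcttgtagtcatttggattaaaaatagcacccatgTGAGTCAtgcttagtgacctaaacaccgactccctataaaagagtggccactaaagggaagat
Mmp20 (chr9:7628111-7628230): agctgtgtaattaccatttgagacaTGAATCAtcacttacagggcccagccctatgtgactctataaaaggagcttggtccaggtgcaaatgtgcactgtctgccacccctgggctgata
Mmp7 (chr9:7691970-7692089): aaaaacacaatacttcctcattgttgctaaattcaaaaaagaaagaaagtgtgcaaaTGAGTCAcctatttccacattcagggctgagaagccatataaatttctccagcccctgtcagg
The ETS core GGAAGT, the kind of letters bound by ERG and its relatives, occurred in 19.7% of all windows and in 11 of the 35 windows of the 32 members that have one. In the Mmp3 window it starts at position -77, upstream of the AP-1 letters at position -46. Such matches describe the sequence and are not evidence of binding.

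The same cluster held the most abundant MMP transcript of the prostate and several of the rarest. Mmp7 (matrilysin) stood at 1744, 473 and 567 FPKM in WT, 364, 346 and 1052 in Pb-ERG, 1312 and 909 in the Trp53pcR172H/- mice and 291, 918 and 545 in the double genotype. The 3 WT libraries alone spanned most of the range of the series, and Mmp7 differed between the double genotype and WT by -0.56 log2 units (95% interval -1.96 to 0.84, adjusted p = 0.547). Mmp3 (stromelysin 1) stood at 0.132, 0.0342 and 0 FPKM in WT, 0.0442, 1.08 and 0.808 in Pb-ERG, 0.0354 and 0.0779 in the Trp53pcR172H/- mice and 0.562, 1.88 and 9.5 in the double genotype. All 3 double libraries were above WT, with replicate 3 far above the rest, and Pb-ERG replicates 2 and 3 were above double replicate 1. The rise of 1.78 ± 0.55 log2 units (SE, adjusted p = 0.0368) rested on 0 to 5 fragments per WT library and was lost in 12 of 21 alternative fits, among them those without any 1 WT library and those without Pb-ERG replicate 3 or double replicate 2 or 3. Mmp12 (macrophage elastase) stood at 0.0477, 0.0771 and 0.159 FPKM in WT, 1.18, 0.681 and 0.779 in Pb-ERG, 1.32 and 0.176 in the Trp53pcR172H/- mice and 0.588, 2.48 and 1.57 in the double genotype. WT and Trp53pcR172H/- replicate 2 were low, and the libraries of the other genotypes overlapped. Its rise of 1.15 ± 0.32 log2 units (SE, adjusted p = 0.0236) was lost in 6 of 21 alternative fits, among them those without any 1 WT library and those without double replicate 2 or 3, and its locus overlaps exons of Mmp1b on the opposite strand. The collagenase Mmp13 and the stromelysin Mmp10, both under the filter, gave 5, 52 and 48 fragments and 9, 9 and 29 fragments in the double libraries, against 0 to 2 and 0 in the WT libraries, and Trp53pcR172H/- replicate 1 gave 12 for Mmp13. Mmp8, Mmp1a, Mmp20 and Mmp27 stayed at or under 0.674 FPKM in every library.

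**Figure D2:**
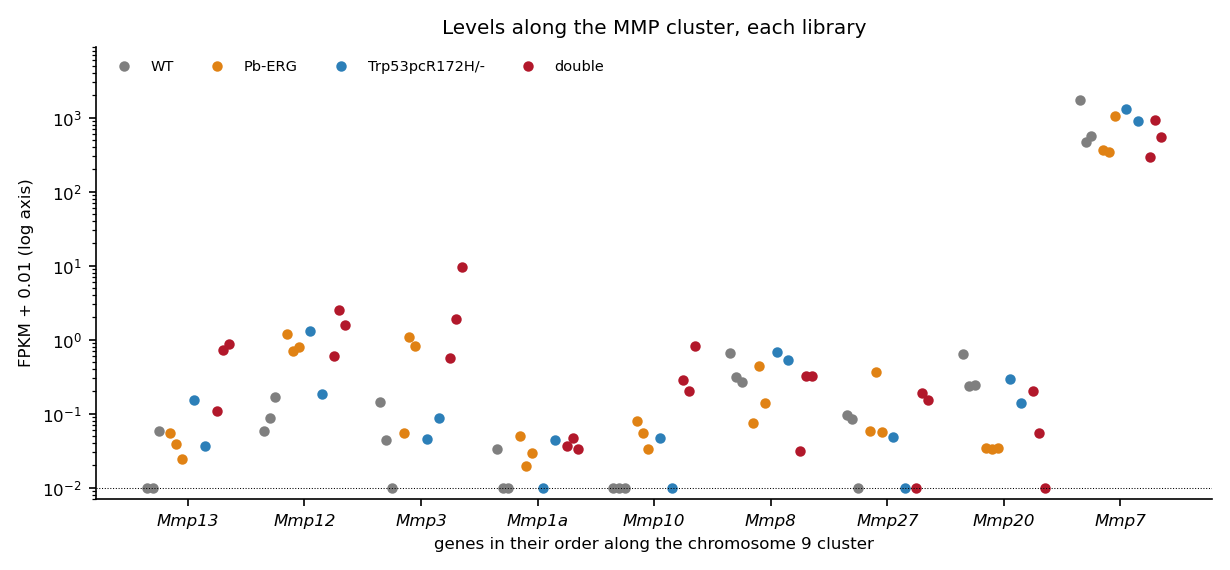
FPKM plus 0.01 (vertical log axis) of the 9 genes of the chromosome 9 MMP cluster in their chromosomal order (horizontal axis), 1 point per library, coloured by genotype; the dotted line is 0 FPKM. Mmp7 lies between 291 and 1744 FPKM in all 11 libraries, whereas Mmp3, Mmp10 and Mmp13 have their highest points in the double genotype.

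Because Mmp7 made up 80.8% to 97.5% of the summed MMP FPKM outside the double genotype, the sum of all 22 MMPs hides the change in the rest. Without Mmp7, the other 21 summed to 44.1, 44.2 and 40.7 FPKM in WT, 47.2, 82.4 and 74.5 in Pb-ERG, 56.9 and 35.8 in the Trp53pcR172H/- mice and 192, 183 and 183 in the double genotype. Mmp2 and Mmp14 together were 28.3% to 31.4% of that sum in WT and 56.5% to 72.3% in the double genotype, and Mmp15 averaged 36.9% in WT and 8.19% ± 2.89 (SD, n = 3) in the double genotype.

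The ADAMTS enzymes that cut aggrecan, versican and brevican gave 6 tested members, of which 4 rose and 1 fell. Adamts4 (aggrecanase 1, chr1:171250421-171260637) stood at 0.0592, 0.0894 and 0.171 FPKM in WT, 0.173, 0.664 and 0.596 in Pb-ERG, 0.165 and 0.0873 in the Trp53pcR172H/- mice and 6.71, 4.95 and 6.47 in the double genotype. The WT values rest on 6, 7 and 13 fragments and the double values on 607 to 654, and no other group came near them. It rose by 2.66 ± 0.2 log2 units (SE, adjusted p = 3e-05) against WT, although as a member that passed the filter only through the double libraries it had to differ. Adamts1, which cuts versican and aggrecan and binds VEGF, stood at 2.6, 3.48 and 3.41 FPKM in WT, 5.24, 4.27 and 5.78 in Pb-ERG, 1.79 and 2.64 in the Trp53pcR172H/- mice and 8.85, 8.61 and 10.02 in the double genotype. All double libraries exceeded all others, with a rise of 1.29 ± 0.18 log2 units (SE, adjusted p = 0.00071). Adamts9 stood at 0.764, 0.881 and 0.648 FPKM in WT, 1.53, 2.46 and 1.4 in Pb-ERG, 0.695 and 0.55 in the Trp53pcR172H/- mice and 4.45, 5.03 and 2.7 in the double genotype. Its lowest double library was 2.7 FPKM against 2.46 in the highest Pb-ERG library, and it rose by 1.49 ± 0.23 log2 units (SE, adjusted p = 0.00101). Adamts5 (aggrecanase 2) ran from 0.421 to 4.49 FPKM within the double genotype and differed from WT by 0.29 log2 units (95% interval -0.64 to 1.23, adjusted p = 0.646).

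Adamts15 and Adamts8 are neighbours on chromosome 9 (chr9:30899155-30962856, 20.1 kb apart) and moved in opposite directions. Adamts15 stood at 0.905, 0.808 and 0.918 FPKM in WT, 1.46, 2.4 and 2.33 in Pb-ERG, 0.864 and 0.839 in the Trp53pcR172H/- mice and 7.05, 5.17 and 8.04 in the double genotype. It rose by 2.03 ± 0.2 log2 units (SE, adjusted p = 0.000103), with the 3 double libraries above the Pb-ERG libraries and these above the WT libraries. Adamts8 stood at 2.07, 2.79 and 3.19 FPKM in WT, 1.93, 1.51 and 2.61 in Pb-ERG, 1.53 and 2.93 in the Trp53pcR172H/- mice and 0.102, 0.294 and 1.34 in the double genotype. It fell by 1.29 on the log2 scale (SE 0.30, adjusted p = 0.0102), and its double libraries were below all others, with replicate 3 the nearest to them. The ratio of Adamts15 to Adamts8 was 0.438, 0.290 and 0.288 in WT, 0.759, 1.59 and 0.895 in Pb-ERG, 0.564 and 0.286 in the Trp53pcR172H/- mice and 68.8, 17.6 and 6.01 in the double genotype. Another neighbouring pair, Adamts1 and Adamts5 on chromosome 16 (55.1 kb apart), gave a ratio of Adamts1 to Adamts5 of 4.35, 1.87 and 4.59 in WT and of 21.0, 9.85 and 2.23 in the double genotype, so that double replicate 3 lay within the WT range.

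Both tested procollagen N-proteinases, which remove the N-propeptide so that fibrillar collagen can assemble, rose. Adamts2 stood at 0.948, 1.78 and 1.46 FPKM in WT, 1.72, 3.65 and 3.28 in Pb-ERG, 1.26 and 1.26 in the Trp53pcR172H/- mice and 7.93, 14.1 and 10.1 in the double genotype. The lowest double library was above the highest Pb-ERG library, and the rise was 2.27 ± 0.26 log2 units (SE, adjusted p = 0.000214). Adamts3 stood at 0.062, 0.136 and 0.149 FPKM in WT, 0.161, 0.347 and 0.261 in Pb-ERG, 0.054 and 0.155 in the Trp53pcR172H/- mice and 1.28, 1.79 and 1.19 in the double genotype. It was at or under 0.347 FPKM in the 8 other libraries and rose by 1.11 ± 0.19 log2 units (SE, adjusted p = 0.00205). The third of the class, Adamts14, was under the filter, with 0.768, 0.843 and 0.348 FPKM in the double libraries and 0.146 to 0.326 elsewhere.

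Of the remaining ADAMTS genes, the 4 that were tested rose and 5 were under the filter. Adamts6 stood at 0.305, 0.42 and 0.263 FPKM in WT, 0.461, 1.52 and 0.594 in Pb-ERG, 0.60 and 0.421 in the Trp53pcR172H/- mice and 3.46, 3.5 and 2.16 in the double genotype. It rose by 1.59 ± 0.24 log2 units (SE, adjusted p = 0.00106), and Pb-ERG replicate 2 was the only other library above 1 FPKM. Adamts10, a fibrillin-associated member, stood at 0.341, 0.562 and 0.376 FPKM in WT, 0.53, 1.86 and 1.45 in Pb-ERG, 0.606 and 0.71 in the Trp53pcR172H/- mice and 3.6, 3.44 and 1.4 in the double genotype. The double and Pb-ERG groups overlapped, and the rise over WT was 1.36 ± 0.29 log2 units (SE, adjusted p = 0.00728). Adamts7, which has been linked to cleavage of cartilage oligomeric matrix protein, stood at 0.397, 0.289 and 0.21 FPKM in WT, 0.339, 0.547 and 0.589 in Pb-ERG, 0.372 and 0.183 in the Trp53pcR172H/- mice and 1.44, 2.44 and 0.938 in the double genotype. Its rise was 0.97 ± 0.23 log2 units (SE, adjusted p = 0.012). Adamts12 stood at 0.259, 0.315 and 0.142 FPKM in WT, 0.306, 0.571 and 0.466 in Pb-ERG, 0.25 and 0.247 in the Trp53pcR172H/- mice and 1.34, 1.94 and 1.32 in the double genotype. The double libraries lay above the rest, with a rise of 1.03 ± 0.19 log2 units (SE, adjusted p = 0.00323). Under the filter, Adamts13, Adamts16, Adamts17, Adamts18, Adamts19 and, from the proteoglycan-cleaving class, Adamts20 stayed at or under 0.632 FPKM in every library. In sum, the 19 ADAMTS loci gave 10.1 to 14.3 FPKM in WT, 16.4 to 23.0 in Pb-ERG, 10.3 and 12.1 in the Trp53pcR172H/- mice and 48.6, 54.6 and 51.2 in the double genotype.

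**Figure D3:**
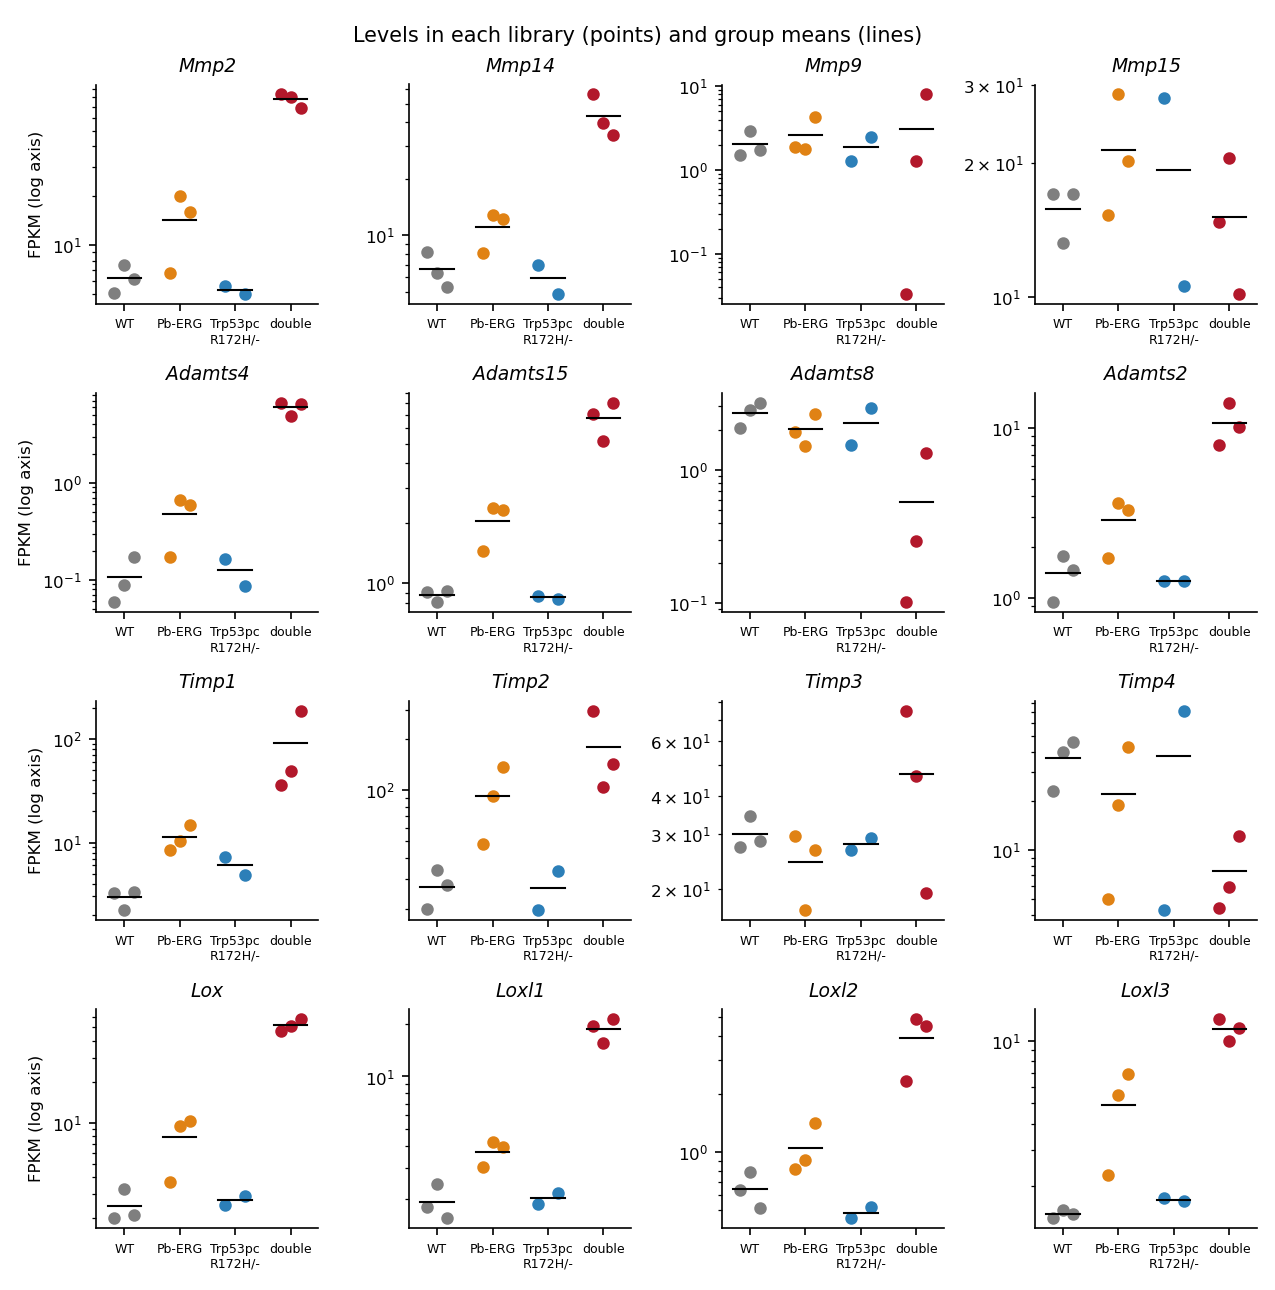
FPKM on log axes (vertical; scales differ between panels) of 16 members in each library (points) with the group mean (black line), for WT, Pb-ERG, Trp53pcR172H/- and the double genotype. The double libraries stand apart above the rest for Mmp2, Mmp14, Adamts4, Adamts15, Adamts2, Timp1 and the 4 lysyl oxidases shown, stand apart below for Adamts8, and overlap other groups for Mmp9, Mmp15, Timp2, Timp3 and Timp4.

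The inhibitors differed among themselves, as the stacked bars of summed levels show. Timp1, the inducible inhibitor that also acts as a growth factor, rose most. Its gene lies on the X chromosome (chrX:20870166-20874735) within Syn1, which is on the opposite strand. The 200 bases upstream of its start (chrX:20869966-20870165, plus strand) are shown with the ETS core, which starts at position -174, in capitals, because Timp1 had the largest difference of all members on the log2(FPKM + 1) scale, while on limma-voom's scale Adamts4 (5.89) and Mmp3 (5.4) exceeded it (4.57).
Timp1: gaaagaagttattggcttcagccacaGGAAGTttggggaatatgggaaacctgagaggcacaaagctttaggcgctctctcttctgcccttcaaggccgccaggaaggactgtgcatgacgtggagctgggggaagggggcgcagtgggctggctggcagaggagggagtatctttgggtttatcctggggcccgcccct
Timp1 stood at 3.26, 2.21 and 3.35 FPKM in WT, 8.45, 10.3 and 14.9 in Pb-ERG, 7.24 and 4.89 in the Trp53pcR172H/- mice and 36.2, 49.6 and 189 in the double genotype. Every Pb-ERG library was above every WT and Trp53pcR172H/- library, and every double library was above every Pb-ERG library. The double mean of 91.5 ± 84.4 FPKM (SD, n = 3) was 31.1 times the WT mean, with most of the spread from replicate 3, and the rise was 4.18 ± 0.49 log2 units (SE, adjusted p = 0.000252).

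Timp2 (chr11:118301069-118355506), which both inhibits MMPs and bridges pro-Mmp2 to Mmp14, stood at 19.8, 33.7 and 27.4 FPKM in WT, 47.97, 92.7 and 136 in Pb-ERG, 19.6 and 33.3 in the Trp53pcR172H/- mice and 294, 105 and 143 in the double genotype. All double libraries were above WT, but Pb-ERG replicate 3 was above double replicate 2, so these groups overlapped. The rise over WT was 2.59 ± 0.45 log2 units (SE, adjusted p = 0.00234), and the difference between the double genotype and Pb-ERG was 0.94 log2 units (95% interval -0.06 to 1.95, adjusted p = 0.223). Timp3, which is bound to the matrix and inhibits ADAMTS enzymes too, stood at 27.3, 34.4 and 28.5 FPKM in WT, 29.6, 17.1 and 26.8 in Pb-ERG, 26.8 and 29.1 in the Trp53pcR172H/- mice and 74.7, 46.1 and 19.5 in the double genotype. Double replicates 1 and 2 were above all others and replicate 3 was below WT, and the difference from WT was 0.44 log2 units (95% interval -0.45 to 1.32, adjusted p = 0.454). Without double genotype replicate 3, Timp3 was higher, with an adjusted p of 0.0433. Timp4 stood at 23.1, 40.00 and 46.2 FPKM in WT, 4.99, 18.8 and 42.9 in Pb-ERG, 4.29 and 71.2 in the Trp53pcR172H/- mice and 4.39, 5.9 and 12.2 in the double genotype. The 3 double libraries were below the 3 WT libraries, but the other 2 genotypes each held both low and high libraries, and the difference of -2.19 log2 units (95% interval -4.16 to -0.22, adjusted p = 0.0964) did not pass the test. It passed in 4 of 21 alternative fits, namely those of the compared groups only (adjusted p = 0.0083), with the replicate block (0.0258) and without Trp53pcR172H/- replicate 1 (0.032) or 2 (0.0318). Exons of Timp3 overlap Syn3 and those of Timp4 overlap Syn2 on the opposite strand.

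The makeup of the inhibitors therefore differed as much as their sum. Timp3 and Timp4 together were 67.4% to 70.9% of the summed TIMP FPKM in WT, 25.9% to 38.0% in Pb-ERG and 8.72% to 25.2% in the double genotype. The sum was 73.5, 110 and 105 FPKM in WT, 91.1, 139 and 221 in Pb-ERG, 57.9 and 139 in the Trp53pcR172H/- mice and 410, 206 and 363 in the double genotype. Set against the MMPs without Mmp7, the ratio of TIMP to MMP transcripts was 1.67, 2.49 and 2.59 in WT, 1.93, 1.69 and 2.97 in Pb-ERG, 1.02 and 3.87 in the Trp53pcR172H/- mice and 2.13, 1.13 and 1.99 in the double genotype. These ratios overlapped in all groups, so the rise of both families left no separation in their ratio.

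**Figure D4:**
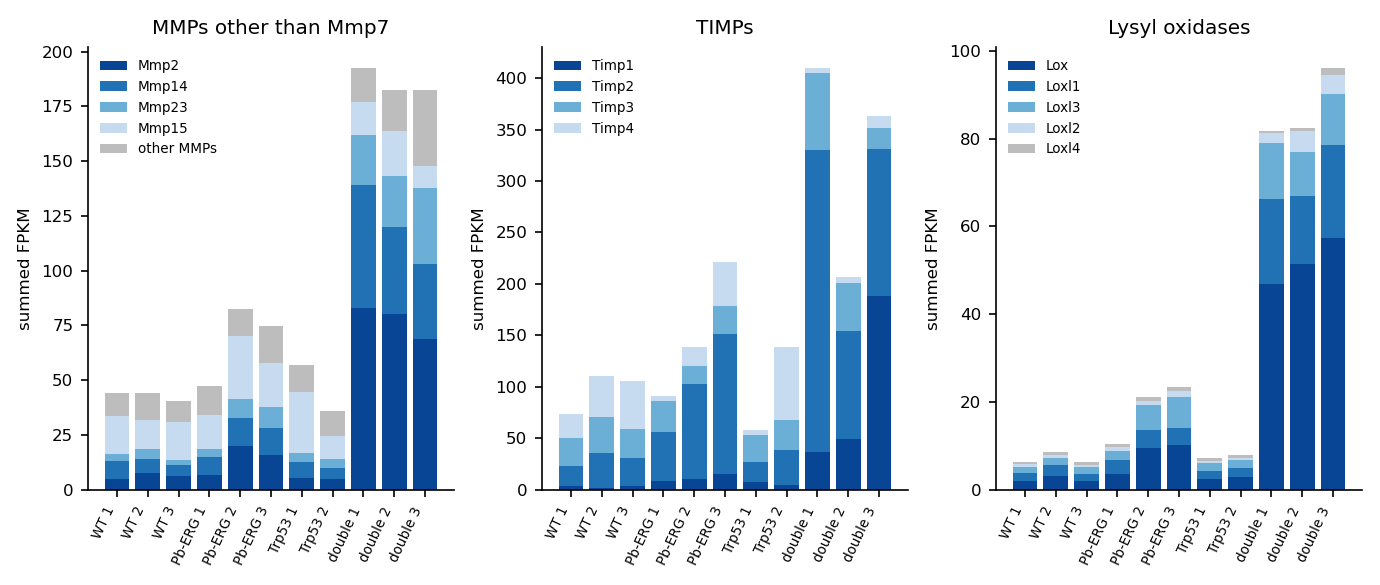
Summed FPKM per library (bar height, axis from 0), split by gene, for the MMPs other than Mmp7, the TIMPs and the lysyl oxidases; Trp53 stands for Trp53pcR172H/-. The 3 double libraries reach 183 to 192 FPKM of MMPs, 206 to 410 of TIMPs and 81.8 to 96.1 of lysyl oxidases, with Mmp2, Timp2 or Timp1, and Lox as the largest parts.

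All 4 tested lysyl oxidases rose in the double genotype, and the plot of levels in each library shows them with the leading proteases. Lox, the founding enzyme of the family, stood at 1.98, 3.24 and 2.09 FPKM in WT, 3.64, 9.51 and 10.2 in Pb-ERG, 2.49 and 2.88 in the Trp53pcR172H/- mice and 46.9, 51.5 and 57.4 in the double genotype. All double libraries were far above all others, the mean was 21.3 times that of WT, and the rise was 3.96 ± 0.31 log2 units (SE, adjusted p = 3.67e-05). Loxl1 (chr9:58287723-58313212), known for elastin, stood at 1.81, 2.43 and 1.55 FPKM in WT, 3.03, 4.23 and 3.94 in Pb-ERG, 1.87 and 2.18 in the Trp53pcR172H/- mice and 19.4, 15.4 and 21.2 in the double genotype. No double library overlapped another group, and the rise was 2.75 ± 0.19 log2 units (SE, adjusted p = 3e-05). Loxl2, which acts on collagen IV, stood at 0.632, 0.784 and 0.515 FPKM in WT, 0.816, 0.911 and 1.42 in Pb-ERG, 0.453 and 0.518 in the Trp53pcR172H/- mice and 2.33, 4.86 and 4.46 in the double genotype. It rose by 1.53 ± 0.24 log2 units (SE, adjusted p = 0.0011), with double replicate 1 the lowest of the 3. Loxl3 stood at 1.4, 1.54 and 1.47 FPKM in WT, 2.27, 5.51 and 6.89 in Pb-ERG, 1.75 and 1.69 in the Trp53pcR172H/- mice and 12.7, 9.98 and 11.5 in the double genotype. It rose by 2.32 ± 0.28 log2 units (SE, adjusted p = 0.000273), and Pb-ERG replicates 2 and 3 lay between WT and the double genotype. Exons of Loxl3 overlap Htra2, and those of Lox and Loxl2 overlap antisense transcripts. Loxl4, under the filter, stood at 0.444, 0.575 and 0.711 FPKM in WT, 0.764, 0.952 and 0.871 in Pb-ERG, 0.595 and 0.674 in the Trp53pcR172H/- mice and 0.483, 0.581 and 1.54 in the double genotype. The family summed to 6.27, 8.58 and 6.34 FPKM in WT and to 81.8, 82.4 and 96.1 in the double genotype, and Lox grew from 31.6% to 37.8% of that sum to 57.3% to 62.5%.

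In the plot of differences with their intervals, the points for the ERG transgene alone lie mostly above 0, but no member passed the test against WT, whereas 1.90% of all loci did in either direction. At an unadjusted p under 0.05, 14 of 33 members were higher in limma and 0 were lower, against 15.0% of loci higher, and limma-voom on recovered fragments called 0 members. The lowest adjusted p-values belonged to Loxl3 (1.16 ± 0.28 log2 units, adjusted p = 0.065), Lox (1.27 ± 0.31 log2 units, adjusted p = 0.0668), Timp2 (1.65 ± 0.45 log2 units, adjusted p = 0.09) and Loxl1 (0.69 ± 0.19 log2 units, adjusted p = 0.0919). The 3 Pb-ERG libraries all lay above the 3 WT libraries for 19 of 50 members, against 16.4% of all listed loci. Within Pb-ERG, replicate 1 was nearer to WT: of the 23 members that rose in the double genotype, replicates 2 and 3 were both above replicate 1 for 20, and above every WT library for 23. Among the 2969 loci that rose there, these shares were 64.0% and 71.6%. Without Pb-ERG replicate 1, 7 members were called higher than WT, namely Timp2, Lox, Mmp23, Loxl3, Mmp2, Adamts15 and Loxl1, with adjusted p-values from 0.0027 for Loxl3 to 0.0452 for Loxl1, while the loci called higher grew to 6.85% of those tested. Replicate 1 also stood apart on several marker sums. In replicates 1 to 3, seminal vesicle markers summed to 28380, 68.1 and 71.2 FPKM, smooth muscle markers to 1614, 315 and 816, and basal epithelial markers to 120, 31.7 and 46.2. Macrophage markers summed to 86.1, 109 and 239, and lymphocyte markers to 2.91, 9.04 and 9.37. The part of these in the members' values was not tested.

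With mutant Trp53 alone, no member passed the test against WT, and only 1 of 15583 loci did (0.00642%). Both Trp53pcR172H/- libraries lay above all WT libraries for 7 of 50 members, Timp1 among them, and below them for 0, against 9.99% and 4.24% of all listed loci. No member had an unadjusted p under 0.05 in limma, and limma-voom called 0. For the 23 members that rose in the double genotype, the Trp53pcR172H/- mean lay inside the WT range for 14, and the share over all loci is not given here. Lox differed from WT by 0.12 log2 units (95% interval -0.65 to 0.88, adjusted p = 1.0), Mmp2 by -0.19 log2 units (95% interval -0.98 to 0.6, adjusted p = 1.0) and Timp1 by 0.83 log2 units (95% interval -0.39 to 2.05, adjusted p = 1.0).

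Between the double genotype and Pb-ERG, 17 of 33 members were higher and 0 were lower, against 7.16% and 1.95% of loci, and 3 were higher at 0.001 (Lox, Loxl1 and Adamts4), against 0.468% of loci. Of the 17, Mmp11, Adamts3, Adamts4, Adamts6, Adamts12 and Loxl2 had passed the filter only through the double libraries. Their tests add no support here either, and the other counts of this paragraph hold such members too. At an unadjusted p under 0.05, 20 were higher and 2 were lower in limma, against 17.5% and 7.76% of loci. In limma-voom on recovered fragments, 18 were higher and 1, Adamts8, was lower, against 7.87% and 2.21% of loci. The differences included 2.49 ± 0.32 log2 units (SE, adjusted p = 0.00143) for Mmp2, 1.87 ± 0.26 log2 units (SE, adjusted p = 0.00209) for Mmp14, 2.57 ± 0.49 log2 units (SE, adjusted p = 0.0104) for Timp1 and 2.69 ± 0.31 log2 units (SE, adjusted p = 0.000908) for Lox. They also included 2.26 ± 0.2 log2 units (SE, adjusted p = 0.000226) for Adamts4 and 1.34 ± 0.2 log2 units (SE, adjusted p = 0.00314) for Adamts15. Fitted in limma with the replicate number as a block, which treats same-numbered libraries as paired, the comparison kept all 17 calls. It also called Adamts8 lower (adjusted p = 0.0353). In that limma fit Adamts4 (adjusted p = 0.00139), Lox (0.00162) and Loxl1 (0.00173) no longer passed 0.001, while 15 of 15583 loci were higher at it. With the class of small non-coding RNA as a covariate, 2 members (Adamts4 and Loxl1) were called, but all double and no Pb-ERG libraries are in the high class, so that only 1 WT and 1 Trp53pcR172H/- library separate it from genotype. Against Trp53pcR172H/-, 21 members were higher and 0 were lower, while 11.5% and 3.27% of loci were. Among the 21, Mmp11, Adamts3, Adamts4, Adamts6, Adamts7, Adamts12 and Loxl2 had passed the filter only through the double libraries. At an unadjusted p under 0.05 limma gave 22 higher and 2 lower, against 22.1% and 7.27% of loci, and limma-voom called 20 higher and 1 lower, against 10.9% and 3.23%. The differences were 3.84 ± 0.35 log2 units (SE, adjusted p = 0.000172) for Lox, 3.63 ± 0.36 log2 units (SE, adjusted p = 0.000257) for Mmp2 and 2.64 ± 0.51 log2 units (SE, adjusted p = 0.00649) for Timp2. Both comparisons share the double libraries with the comparison against WT and are not independent of it.

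**Figure D5:**
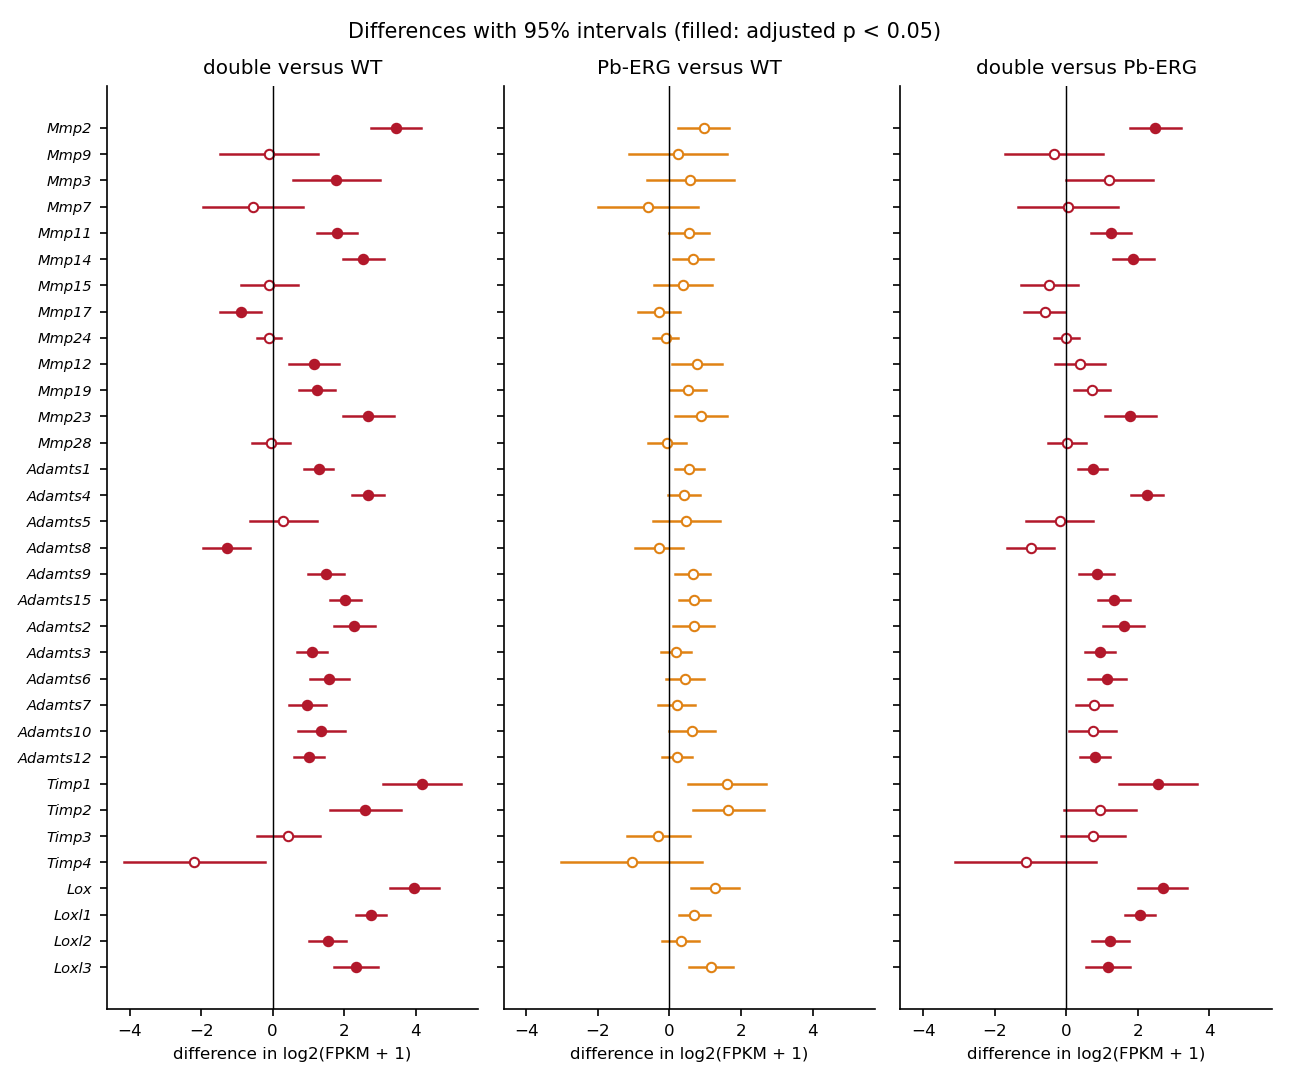
Difference in log2(FPKM + 1) (horizontal axis) with its 95% interval from limma for the 33 members past the filter (rows, by class) in 3 comparisons; filled points have an adjusted p under 0.05. In the double genotype against WT 23 members are filled to the right and 2 to the left, in Pb-ERG against WT none is filled although most points lie to the right, and 17 are filled in the double genotype against Pb-ERG.

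The interaction asks whether the step from Pb-ERG to the double genotype differs from the step from WT to Trp53pcR172H/-. It was positive and passed the test for 4 of 33 members, Adamts4 (2.23 ± 0.3 log2 units, adjusted p = 0.0137), Loxl1 (2.0 ± 0.29 log2 units, adjusted p = 0.0184), Mmp2 (2.68 ± 0.48 log2 units, adjusted p = 0.0421) and Lox (2.57 ± 0.46 log2 units, adjusted p = 0.0431), against 0.449% of loci. Adamts4 had passed the filter only through the double libraries, so its test adds no support. Mmp14 was next at 2.0 ± 0.39 log2 units (SE, adjusted p = 0.0566). The call of these 4 depended on the fit: 0 remained called with limma-voom on recovered fragments, with a pseudocount of 0.1 or with the class covariate. Over all loci, positive calls fell too, from 70 of 15583 to 0, 18 and 3 in these fits. With the replicate block, which treats same-numbered libraries as paired, Adamts4 alone was called in limma (adjusted p = 0.0493, against 0.0601 for Loxl1, 0.0656 for Lox and 0.0779 for Mmp2). All 4 differences stayed positive in all 21 fits. At an unadjusted p under 0.05, 19 members had a positive interaction in limma, against 7.32% of loci. This count holds members, Mmp11 and Adamts4 among them, that had passed the filter only through the double libraries and add no support.

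The wider system of the matrix proteases gave a mixed picture in the double genotype against WT. The median over all loci tested was 0.245, and list genes that passed the filter only through the double libraries were not set apart. Of 14 tested activators and surface partners of proenzymes, 6 rose and 2 (St14 and Tmprss2) fell, with a median of 0.413. The plasminogen activator Plat rose by 4.51 ± 0.45 log2 units (adjusted p = 0.00011), the urokinase receptor Plaur by 4.35 ± 0.41 log2 units (adjusted p = 8.79e-05) and the proprotein convertase Pcsk5 by 3.17 ± 0.32 log2 units (adjusted p = 0.000121). Of 11 non-TIMP inhibitors, 4 rose and 1 (Spock2) fell, with a median of 0.789. They were led by the broad protease trap A2m (5.89 ± 0.42 log2 units, adjusted p = 3e-05), by Tfpi2 (3.08 ± 0.54 log2 units, adjusted p = 0.00226) and by Pcolce (1.91 ± 0.35 log2 units, adjusted p = 0.00324), the last of which enhances procollagen C-proteinase. Of 17 other matrix-cleaving proteases, 13 rose, with a median of 1.32. They were led by the cathepsins Ctsk (3.44 ± 0.32 log2 units, adjusted p = 8.14e-05) and Ctss (3.19 ± 0.48 log2 units, adjusted p = 0.000976) and the procollagen C-proteinase Bmp1 (2.44 ± 0.22 log2 units, adjusted p = 7.35e-05).

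Among 9 other collagen-modifying and crosslinking enzymes, 5 rose and 1 fell, with a median of 0.724. The lysyl hydroxylase Plod2 rose by 1.67 ± 0.45 log2 units (adjusted p = 0.0195) and peroxidasin (Pxdn) by 1.53 ± 0.25 log2 units (adjusted p = 0.00146). The one that fell was Tgm4, a prostate secretory transglutaminase, which went from 13600 to 21500 FPKM in WT to 27.1 to 2200 in the double genotype and fell by 5.93 on the log2 scale (adjusted p = 0.00828). Of 12 substrates, 7 rose and 1 (Fmod, fibromodulin) fell, with a median of 1.27, and the differences were 3.71 ± 0.28 log2 units (adjusted p = 3e-05) for Thbs1, 2.92 ± 0.24 log2 units (adjusted p = 5.09e-05) for versican (Vcan) and 2.64 ± 0.25 log2 units (adjusted p = 8.12e-05) for fibrillin 1 (Fbn1). Of 5 genes of the ADAMTS-like group, Adamtsl1 (0.86 ± 0.21 log2 units, adjusted p = 0.0117) and Adamtsl3 (0.8 ± 0.21 log2 units, adjusted p = 0.0177) rose, and Papln (papilin) fell by 1.17 on the log2 scale (adjusted p = 0.00445), with a median of 0.454. St14, Tmprss2, Spock2 and Fmod were named after their values were seen.

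Markers of several cell types, whose levels are given as summed FPKM, moved with the same groups. In the double genotype against WT, 8 of 8 smooth muscle markers fell, and their sum was 1272 to 1802 FPKM in WT, 315 to 1614 in Pb-ERG and 84.0 to 454 in the double genotype. Of 8 fibroblast markers, 3 rose (Pdgfra, Pdgfrb and Thy1) and 0 fell, but the median over the 8 was 0.015, against 0.245 over all loci tested. The fibroblast sums were 223 to 346 in WT, 256 to 361 in Pb-ERG and 170 to 544 in the double genotype. The most abundant of the 8, Dcn, averaged 208 FPKM in WT and 191 in the double genotype. All 7 endothelial markers rose, with sums of 15.3 to 22.8 in WT, 22.9 to 24.2 in Pb-ERG and 46.4 to 70.8 in the double genotype. Of 6 macrophage markers, 4 rose, with sums of 45.9 to 81.7, 86.1 to 239 and 99.5, 203 and 668 in double replicates 1 to 3. All 4 tested neutrophil markers rose, with sums of 1.35 to 2.97, 1.91 to 8.51 and 10.3, 63.2 and 169, and Cxcr2 and Mpo were at 0 in all WT libraries. With WT sums this low, such markers may have passed the filter only through the double libraries. Marker tests of that kind had to differ, were not set apart here and add no support. All 4 basal epithelial markers fell, and their sums were 46.7 to 112 in WT, 31.7 to 120 in Pb-ERG and 2.20 to 12.5 in the double genotype. The 3 tested lymphocyte markers had adjusted p-values of 0.11 to 0.347, with sums of 1.31 to 2.11 in WT and 0.508 to 14.3 in the double genotype, and all 6 proliferation markers rose (3.12 to 4.43 in WT and 32.1 to 50.6 in the double genotype). Seminal vesicle transcripts varied from 68.1 to 28380 FPKM between libraries, and 1 of 8 (Svs2) fell. The markers named by symbol, apart from Dcn, were chosen after their values were seen. Double replicate 3 had the highest macrophage and neutrophil sums, and of the 23 members that rose, the highest double library was replicate 1 for 7, replicate 2 for 8 and replicate 3 for 8. The part of these cell types in the members' differences was not tested.

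Exons of 15 of the 50 members overlap exons of another gene in the GENCODE vM21 annotation, and reads there cannot be assigned to either gene. The 3 other scalings (median-of-ratios, trimmed-mean, and to the listed loci) moved the median of all loci tested from 0.245 to between -0.03 and 0.02 on the log2 scale. Under them, all 25 members called in the double genotype against WT kept their direction. Of the 25, 19 were called in all 22 fits, and the others were Mmp3, Mmp12, Mmp17, Adamts7, Adamts10 and Adamts12.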

How the data were processed

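Values were FPKM per locus for 11 prostate libraries, which the authors deposited after alignment to GRCm38/mm10 with STAR (version 2.5.2b in the submitters' processing notes) of paired-end reads from an unstranded library. Whole fragments per locus were recovered from the FPKM steps for depth and for 1 alternative. The members and gene lists were chosen with earlier results of these data known. log2(FPKM + 1) was fitted with limma 3.58.1 (R 4.3.3) with 1 mean per group over all 11 libraries (7 residual degrees of freedom), trended variance and Benjamini-Hochberg adjustment over the 15583 loci with at least 1 FPKM in 2 libraries. Tables were built with Python 3.11.15 and pandas 2.3.3. The libraries are labelled as separate samples, and the p-values measure the spread between them. Members with an adjusted p under 0.05 in any of 6 comparisons, all TIMPs and all lysyl oxidases are given in every library, other members by class. From each pathway list at most the 3 called genes with the largest difference from WT are named, and from each marker list the summed level and the gene of highest mean.

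Genotypes share replicate numbers. Deviations from the group means correlated between same-numbered double and Pb-ERG libraries (r = 0.126, 0.249 and 0.330 across loci), but not between the double genotype and WT (r = 0.0786, -0.126 and -0.158). The replicate block treats same-numbered libraries of all groups as paired, which the labels do not state. Trp53pcR172H/- and WT libraries correlated as much (r = 0.234 and 0.351). The double genotype and Trp53pcR172H/- gave r = -0.0223 and -0.347, and Pb-ERG and WT gave 0.00133, 0.073 and -0.14. Libraries with different numbers were not correlated, so these values do not settle whether the numbers pair any of the libraries. On data simulated for all 11 libraries, with 1 fixed spread for every gene and group, 13250 genes were tested. There, 92.9% of 4-fold and 21.6% of 2-fold changes were called in the double genotype against WT. Members with a wider spread within a group were not modelled. The alternatives were a pseudocount of 0.1, no filter or a filter of 3 libraries, 3 scalings, the compared groups only, the class of small non-coding RNA (at least 4% of fragments) as a covariate, the replicate block, limma-voom on recovered fragments, a threshold of 0.001 and leaving out each library in turn. Promoter windows came from RefSeq (GRCm38.p6; 32 of 50 members matched by symbol) and exon overlaps from GENCODE vM21. Mmp1b was not analysed here. The luminal epithelial marker list and 1 exon overlap are not reported here.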

Additional observations from a re-analysis of the deposited data

Results flagged for a closer look

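A test of the interaction set the difference between Pb-ERG and the double genotype apart from that between WT and Trp53pcR172H/- for 4 members. On the log2(FPKM + 1) scale the first difference exceeded the second by 2.68 for Mmp2, 2.23 for Adamts4, 2.57 for Lox and 2.0 for Loxl1. Adamts4 had passed the filter only through the double libraries, so its test adds no support. Over the 21 fits the adjusted p from limma ran from 0.0196 to 0.458 for Mmp2, from 0.0129 to 0.285 for Adamts4, from 0.0196 to 0.42 for Lox and from 0.0176 to 0.435 for Loxl1. All 4 rest on 2 Trp53pcR172H/- libraries, and without either of them none of the 4 was called.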

How the results depend on the processing

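In the double genotype against WT, 25 members were called, 12 at a threshold of 0.001, and 21 to 26 when each library was left out in turn. Over all 15583 loci, 2969 were higher and 976 lower in the main fit, and 1832 to 3166 were higher with 1 library left out. In Pb-ERG against WT, where 0 members were called, 2 were called with a pseudocount of 0.1, 3 with scaling to the listed loci and 1 with the compared groups only. Leaving out 1 library gave 0 to 7 (7 without Pb-ERG replicate 1, 1 without double genotype replicate 3). Loci called higher there went from 246 of 15583 to 460, to 453 of 15807 and to 373 in the first 3 of these fits, and to 1068 without Pb-ERG replicate 1. In Trp53pcR172H/- against WT the count was 0 in every fit. In the double genotype against Pb-ERG, 17 were called, and 6 with scaling to the listed loci (Adamts8 as lower), 8 with the compared groups only, 2 with the class of small non-coding RNA added to the model, 3 at 0.001 and 13 to 19 with 1 library left out. The calls over all loci moved too. Loci called higher and lower went from 1115 and 304 of 15583 to 272 and 834 of 15807 with scaling to the listed loci. They were 484 and 56 with the compared groups only, and 69 and 0 with the class covariate. Against Trp53pcR172H/-, 21 were called, 8 at 0.001, and 16 to 22 with 1 library left out. For the interaction, 4 were called, and 0 with a pseudocount of 0.1, scaling to the listed loci, the class covariate, limma-voom or the threshold of 0.001, 2 without the filter or with trimmed-mean scaling, and 1 with the replicate block. Leaving out 1 library gave 0 to 5 (0 without WT replicate 2 or 3 or either Trp53pcR172H/- library, 1 without WT replicate 1, 2 without Pb-ERG replicate 3 or double genotype replicate 2). Over all loci, positive interactions called went from 70 of 15583 to 18 with a pseudocount of 0.1, 3 with the class covariate and 0 with limma-voom. They were 31 with the replicate block and 4 of 15807 with scaling to the listed loci. Against Trp53pcR172H/-, 155 of 15583 loci were higher at 0.001 and 17 were lower. The interaction uses all 4 groups, so the fit of the compared groups only was not run for it. Where leaving out 1 library left a lone Trp53pcR172H/- library, it was assumed to vary like the other groups. The cause of these changes was not tested. No called member, TIMP or lysyl oxidase changed direction in the double genotype against WT. With the class covariate, the differences of Mmp15 (-0.10), Mmp28 (-0.05) and Adamts5 (0.29), which were not called, turned to 0.41, 0.01 and -0.01. Single-member results were counted for the members called in each double-genotype comparison or the interaction, and for Timp3 and Timp4 against WT. Of these, 1278 stayed on their side of the threshold, 229 lost a call and 5 gained one. The count leaves out Pb-ERG against WT and other members not called in the main fit. Some of those gained calls, such as Adamts8 between the double genotype and Pb-ERG. With the replicate block, which treats same-numbered libraries as paired, 18 members were called between the double genotype and Pb-ERG. On data simulated for all 11 libraries with 1 fixed spread, 21.6% of 2-fold changes were called in the double genotype against WT.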
